A study of Homo sapiens with 4 samples.

Results

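The 10 genes described here code for prothymosin alpha (PTMA), its relative parathymosin (PTMS), and 8 histone chaperones: NPM1, NAP1L1, SET, ANP32A, ANP32B, ANP32E, NASP and ASF1B. They were chosen by name from the 58735 genes of the deposited table, as a family grouped around PTMA, which was picked because its level was lower after FOXM1 knockdown. That choice used the comparison reported below, so the levels are given as a description, with no p-value for any member, and nothing is read from the counts of members called. The data are messenger RNA levels in Myla, an established line grown from mycosis fungoides, a skin lymphoma of T cells. The shFOXM1 group (2 libraries) received lentivirus with short hairpin RNA against FOXM1, a transcription factor of dividing cells, and the shControl group (2 libraries) received lentivirus with a scrambled hairpin. Both groups were otherwise the same line, transduced with 10 uL of virus medium per mL of culture, given fresh medium after 24 h and harvested 72 h later. The line is a single one, the promoter of the hairpin is not given in the sources used here, and the submitters call the libraries of a group biological replicates without saying whether they were transduced separately, so the spread between them may be technical.

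Histone chaperones bind histones outside nucleosomes, keep their positive charge from sticking to DNA at the wrong place, and hand them to the machinery that builds or takes apart chromatin. Many of them carry long stretches of the acidic residues aspartate and glutamate. NASP and ASF1B act on histones H3 and H4, NAP1L1 on H2A-H2B, ANP32E on the variant H2A.Z, and NPM1 works in the nucleolus. PTMA is a small, very acidic nuclear protein that binds the linker histone H1 and is abundant in dividing cells, lymphocytes among them.

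The acidic stretches can be read in the genes themselves. For 8 of the genes the 20 consecutive codons richest in acidic codons (GAA, GAG, GAC or GAT) are shown from the coding transcript in GENCODE release 29 (GRCh38), 5′ to 3′ along the coding strand, with acidic codons in capitals.
PTMA: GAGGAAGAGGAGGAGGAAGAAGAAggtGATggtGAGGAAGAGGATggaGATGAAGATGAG
PTMS: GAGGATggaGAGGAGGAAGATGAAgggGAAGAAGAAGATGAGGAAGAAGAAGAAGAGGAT
NPM1: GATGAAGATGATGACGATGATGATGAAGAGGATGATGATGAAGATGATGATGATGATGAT
NAP1L1: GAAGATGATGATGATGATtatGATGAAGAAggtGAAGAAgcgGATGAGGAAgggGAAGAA
SET: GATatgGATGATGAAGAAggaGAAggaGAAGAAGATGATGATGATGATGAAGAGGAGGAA
ANP32B: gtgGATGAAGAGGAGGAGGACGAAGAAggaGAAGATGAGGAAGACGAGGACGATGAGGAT
NASP: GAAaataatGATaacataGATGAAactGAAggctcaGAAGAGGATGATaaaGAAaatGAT
ASF1B: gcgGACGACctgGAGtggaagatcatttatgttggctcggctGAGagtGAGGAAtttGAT

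These windows lie at codons 62 to 81 of PTMA, 54 to 73 of PTMS, 161 to 180 of NPM1, 348 to 367 of NAP1L1, 224 to 243 of SET, 165 to 184 of ANP32B, 130 to 149 of NASP and 35 to 54 of ASF1B. All 20 codons of the window were acidic in NPM1, 18 in PTMS and ANP32B, 17 in PTMA and SET, 16 in NAP1L1, 11 in NASP and 7 in ASF1B. A window with at least 15 acidic codons was present in 8 of the 10 genes and in 2.08% of the 9743 coding genes that were both tested below and had a complete reading frame. Over the whole reading frame, PTMA had 54 acidic codons of 111 (48.6%) and PTMS 47 of 102 (46.1%), the highest and second highest shares of those 9743 genes, whose median was 12.0%. ANP32E (38.1%), ANP32B (37.5%), ANP32A (35.7%) and SET (31.8%) ranked 4, 5, 7 and 11. NAP1L1 (26.6%), NPM1 (22.1%) and NASP (22.0%) ranked 26, 114 and 118. ASF1B, a compact protein that grips the H3-H4 pair with a folded domain, was at 13.4% and ranked 3195. By this measure 9 of the genes were far more acidic than the median gene and ASF1B was close to it.

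**Figure D1:**
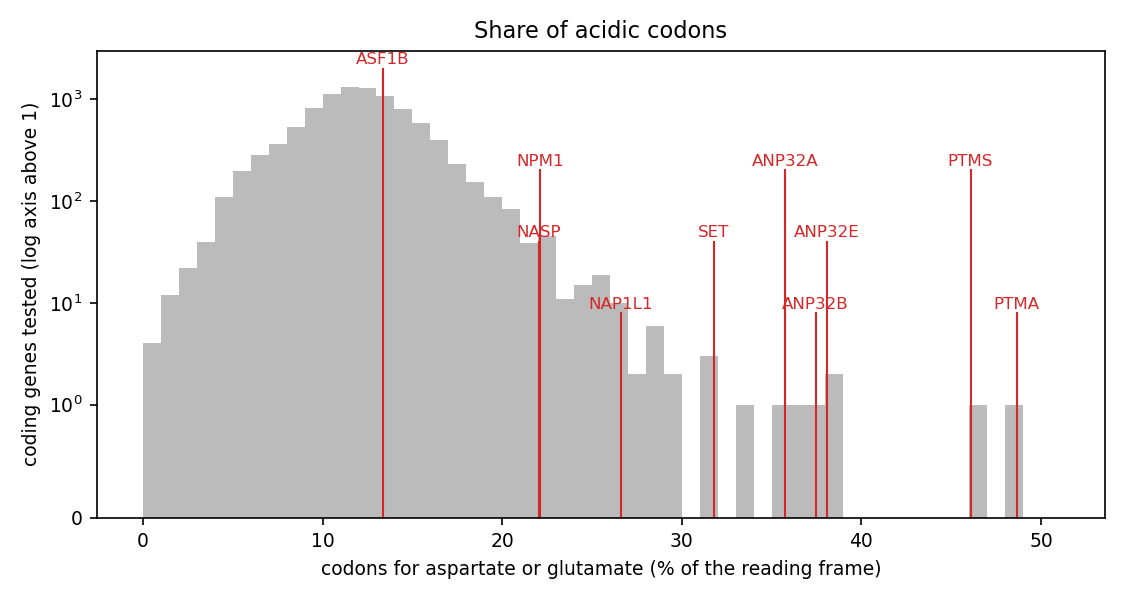
Share of acidic codons in the reading frame (x axis, %) of the coding genes tested (grey bars, number of genes, log axis above 1), with the 10 genes marked by red lines whose height has no meaning. PTMS and PTMA stand at the far right at 46.1% and 48.6%, and ASF1B lies in the bulk of the distribution at 13.4%.

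Levels were deposited as FPKM, fragments scaled by the length of the gene and the size of the library. Behind them stood 14147084 (shControl 1), 14778639 (shControl 2), 15017728 (shFOXM1 1) and 14680094 (shFOXM1 2) whole reads, and mitochondrial genes took 4.98 to 5.93% of them, lowest in shFOXM1 2. FOXM1 itself was at 26.5 and 27.6 FPKM in the controls against 9.27 and 5.59 FPKM in the knockdowns, lower in both knockdown libraries and lowest in shFOXM1 2. Of 10 T cell markers 8 reached the level tested, and the summed level of the 10 was 318 to 333 FPKM in shControl and 311 to 370 in shFOXM1. CD3E (at most 0.138 FPKM) and LCK (at most 0.0211 FPKM) were nearly absent from the deposited values of all 4 libraries. Whether such low values lie in the cells or in the counting of reads was not tested. Among 24 markers of other cell types 6 reached the level tested (CD79A of B cells, CSF1R of monocytes, COL1A1 of fibroblasts, and KRT10, TP63 and CDH1 of keratinocytes), and MS4A1, FCGR3A, DCN, LUM, KRT14 and KRT1 were at 0 in all 4 libraries. The summed levels, shControl against shFOXM1, ran from 1.97 to 2.14 against 0.543 to 8.18 FPKM for B cells, 9.18 to 13.0 against 8.53 to 13.6 for monocytes, 2.56 to 2.76 against 3.256 to 4.496 for fibroblasts and endothelium, and 22.0 to 23.5 against 20.7 to 26.7 for keratinocytes, and their part in the results was not tested. In such bulk samples fewer cells that express a gene and less RNA per cell cannot be told apart.

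All 10 genes were above the level set for testing, 1 FPKM in at least 2 libraries, which 12033 genes passed. For 9 of the 10 the knockdown libraries both lay under the lower of the controls, an order seen in 25.9% of all genes tested. The tenth, PTMS, overlapped between the groups, and 0 of the 10 lay above in both libraries, which 27.3% of all genes did. The median log2 fold change (shFOXM1 minus shControl, on log2(FPKM + 1)) was -0.44 for the 10 genes and -0.00075 over all genes tested. The median of the 10 was -0.22 without shFOXM1 2 and -0.60 without shFOXM1 1. PTMA was picked for its lower level and its relatives were listed with it, so these counts describe the genes and do not test them. Limma's test over all genes called 0 of the 10 lower and 0 higher at an adjusted p under 0.05, where it called 0% of all genes in either direction. At an unadjusted p under 0.05 it had 6 of the 10 lower and 0 higher, against 1082 lower and 1061 higher over all genes, and voom on the whole reads had 0 called and 6 lower. Among fits that kept all libraries, the count of 6 was 5 with no filter on low values and 4 with the replicate block or without the trend. It also changed in fits with single libraries left out. The called number depended on the shFOXM1 libraries, whose log2 values differed from each other with an SD over genes of 0.424, against 0.263 between the shControl libraries. Limma called 8 of the 10 lower once shFOXM1 1 was dropped, where it called 14.5% of all genes lower, and 4 of the 10 once shFOXM1 2 was dropped, where it called 2.95%. In such a fit only the controls supply the spread and the lone knockdown library is assumed to vary like them.

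**Figure D2:**
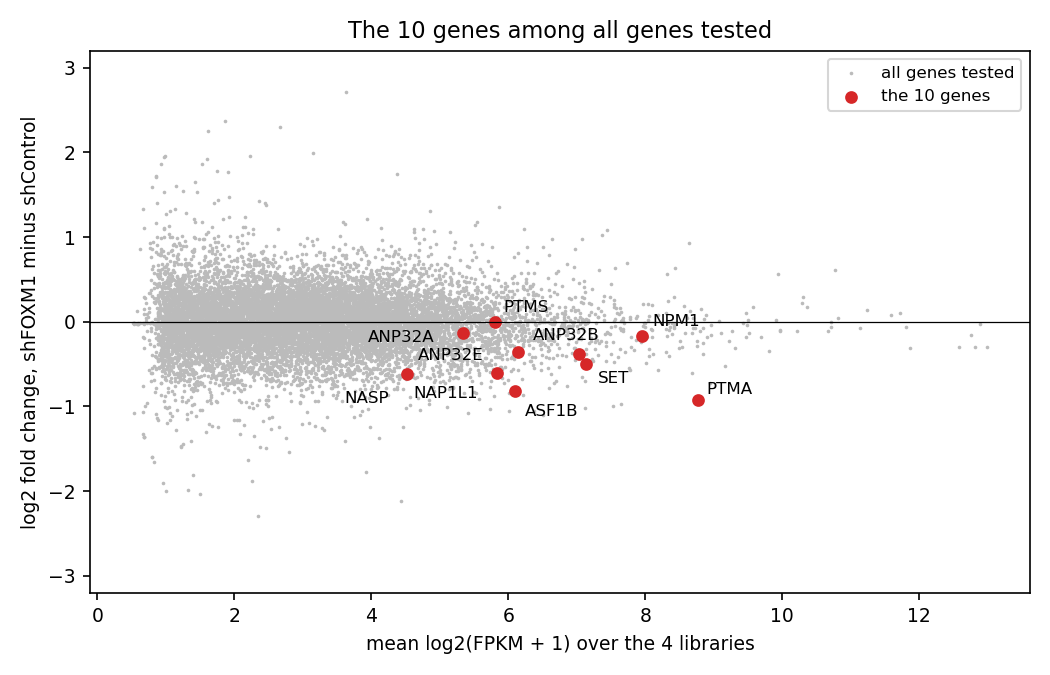
Log2 fold change, shFOXM1 minus shControl (y axis), against mean log2(FPKM + 1) over the 4 libraries (x axis) for the 12033 genes tested (grey) and the 10 genes (red). PTMA lies at -0.92 among the most abundant genes, and PTMS lies on the zero line.

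PTMA was the most abundant of the 10 genes and had the largest difference. The gene (ENSG00000187514) spans bases 231706895 to 231713541 on the plus strand of chromosome 2. It was at 611 (shControl 1) and 594 FPKM (shControl 2), against 342 (shFOXM1 1) and 295 FPKM (shFOXM1 2). Both knockdown libraries lay far below both controls, at 56.7 and 48.9% of the control mean. The means were 602 ± 12.2 and 318 ± 33.1 FPKM (SD, n = 2 each), with the control mean 1.89 times the knockdown mean, and the fitted log2 fold change was -0.92 (SE 0.11). Ranked by its control mean PTMA was number 39 of the 12033 genes tested, and 1.00% of them had a lower log2 fold change. It rested on 29292, 29593, 17075 and 15170 reads in the order above, so counting error was small beside the spread between libraries. PTMA made up 0.207 and 0.2002% of all reads in shControl and 0.114 and 0.103% in shFOXM1.

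PTMS, the parathymosin gene, did not share this difference. PTMS (ENSG00000159335, chromosome 12, 6765516 to 6770952, plus strand) was at 54.9 (shControl 1) and 54.6 FPKM (shControl 2), against 67.2 (shFOXM1 1) and 44.4 FPKM (shFOXM1 2). The controls were nearly equal, and the knockdown libraries fell on either side of them, at 123 and 81.0% of the control mean. The means were 54.8 ± 0.176 and 55.8 ± 16.2 FPKM (SD, n = 2 each), with a log2 fold change of -0.0033 (SE 0.21), whose sign turned to 0.03 after quantile normalization and 0.01 by voom. The ratio of PTMA to PTMS within a library was 11.1 and 10.9 in the controls against 5.08 and 6.64 in the knockdowns, so the ratio was lower in both knockdown libraries although PTMS itself was not. The start of PTMS overlaps the start of MLF2, which lies on the opposite strand (6747996 to 6767475). MLF2 had 1674 to 1980 reads against 997 to 1468 for PTMS. Whether reads were counted by strand is not given in the sources used here, so reads in the shared stretch could belong to either gene.

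**Figure D3:**
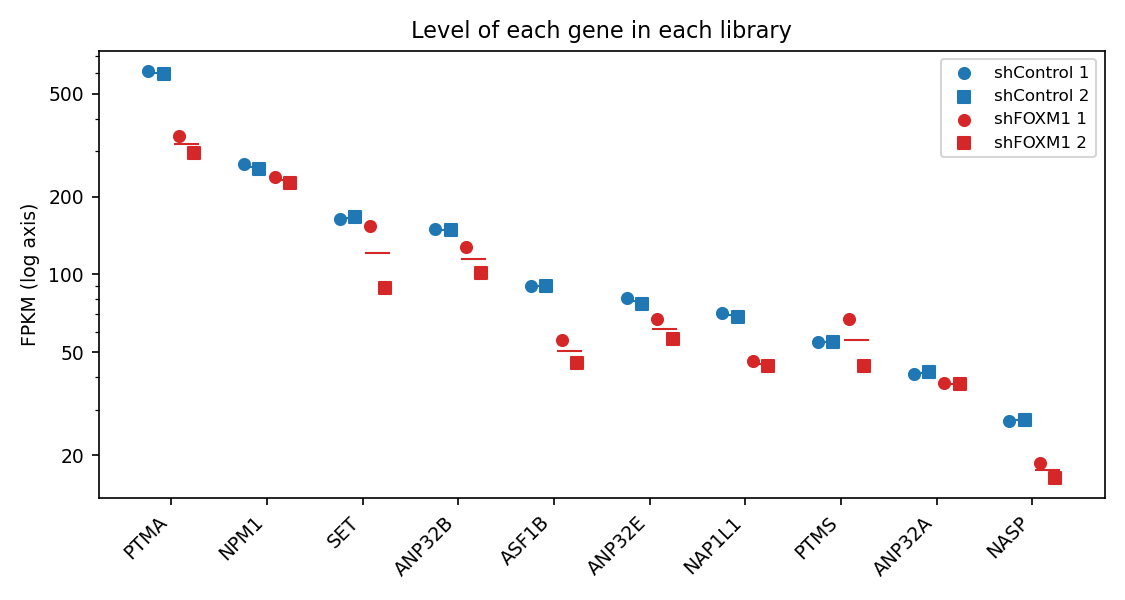
FPKM (y axis, log scale) of each of the 10 genes in shControl 1 and 2 (blue) and shFOXM1 1 and 2 (red), with circles for library 1, squares for library 2 and short lines for the group means, ordered by control mean. The red points lie under the blue ones for every gene except PTMS, where they fall on both sides.

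Several of these genes have processed copies elsewhere in the genome, whose reads an aligner can confuse with their own. Of 81 rows named as copies of a member, 27 had any read and 4 had at least 20 reads in some library. PTMAP2, PTMAP4 and PTMAP5 had 18 to 64 reads in shControl and 11 to 49 in shFOXM1, and all 3 were lower in both knockdown libraries, as PTMA was. All copies of PTMA together had 0.345 to 0.435% of the reads of PTMA itself, and adding them left its log2 fold change at -0.92. Of windows of 50 bases in the copy, 33.1% in PTMAP2 and 33.2% in PTMAP5 matched a PTMA transcript exactly, and 0% in PTMAP4. NPM1P27, a copy of NPM1 on chromosome 5 (93682838 to 93683667), had 348 to 379 reads in every library with overlapping groups, and 52.6% of its windows matched NPM1 exactly. Reads of the copies and misplaced reads of their parents cannot be told apart, and adding their reads left the median of the 10 genes at -0.44.

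NPM1, or nucleophosmin, moves ribosome parts and histones through the nucleolus and was the second most abundant of the genes. NPM1 (ENSG00000181163, chromosome 5, 171387116 to 171411137, plus strand) was at 266 (shControl 1) and 256 FPKM (shControl 2), against 238 (shFOXM1 1) and 226 FPKM (shFOXM1 2). Both knockdown libraries lay below both controls. On log2(FPKM + 1), library 2 minus library 1 was -0.057 in shControl and -0.077 in shFOXM1. The means were 261 ± 7.30 and 232 ± 8.78 FPKM (SD, n = 2 each), and the log2 fold change of -0.17 (SE 0.094) shrank to -0.06 after quantile normalization. PTMA was at 2.29 and 2.32 times the FPKM of NPM1 in the controls against 1.43 and 1.30 times in the knockdowns.

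NAP1L1 and SET belong to the nucleosome assembly protein family and differed in how the knockdown libraries agreed. NAP1L1 (ENSG00000187109, chromosome 12, 76036587 to 76085033, minus strand), which shuttles H2A-H2B, was at 70.6 (shControl 1) and 68.2 FPKM (shControl 2), against 46.4 (shFOXM1 1) and 44.1 FPKM (shFOXM1 2). Both knockdown libraries were lower and close to each other, with means of 69.4 ± 1.68 and 45.2 ± 1.61 FPKM (SD, n = 2 each) and a log2 fold change of -0.61 (SE 0.10). Its gene length in the table, 17355 bases over all its exons, is the longest of the 10 and lowers its FPKM: its reads numbered 17394 and 17473 in the controls, more than those of NPM1, against 11907 and 11656 in the knockdowns, fewer than those of NPM1. SET (ENSG00000119335, chromosome 9, 128683424 to 128696400, plus strand), which also inhibits the phosphatase PP2A and masks histone tails from acetylation, was at 164 (shControl 1) and 167 FPKM (shControl 2), against 154 (shFOXM1 1) and 88.3 FPKM (shFOXM1 2). Only shFOXM1 2 lay far below the controls. The log2 fold change of SET was -0.50 (SE 0.27), and it was -0.11 with shFOXM1 2 left out and -0.90 with shFOXM1 1 left out.

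The 3 ANP32 genes, whose proteins pair leucine-rich repeats with an acidic tail, differed in the size of the gap between groups. ANP32A (ENSG00000140350, chromosome 15, 68778535 to 68820897, minus strand), an inhibitor of PP2A that also promotes caspase activation, was at 41.2 (shControl 1) and 42.0 FPKM (shControl 2), against 38.0 (shFOXM1 1) and 37.5 FPKM (shFOXM1 2). Its groups did not overlap, but the step was small, with means of 41.6 ± 0.532 and 37.8 ± 0.320 FPKM (SD, n = 2 each) and a log2 fold change of -0.14 (SE 0.099). ANP32B (ENSG00000136938, chromosome 9, 97983361 to 98015943, plus strand), the most abundant of the 3, was at 149 (shControl 1) and 148 FPKM (shControl 2), against 128 (shFOXM1 1) and 101 FPKM (shFOXM1 2). Its means were 149 ± 0.668 and 114 ± 18.9 FPKM, and its log2 fold change of -0.38 (SE 0.14) became -0.22 without shFOXM1 2. ANP32E (ENSG00000143401, chromosome 1, 150218417 to 150236156, minus strand), which strips the variant H2A.Z from nucleosomes, was at 81.1 (shControl 1) and 76.7 FPKM (shControl 2), against 67.2 (shFOXM1 1) and 56.2 FPKM (shFOXM1 2). Its means were 78.9 ± 3.16 and 61.7 ± 7.77 FPKM, and its log2 fold change of -0.35 (SE 0.13) became -0.23 without shFOXM1 2. The ratio of ANP32B to ANP32A was 3.62 and 3.53 in the controls against 3.36 and 2.69 in the knockdowns.

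The H3-H4 chaperones NASP and ASF1B came next to PTMA in log2 difference. NASP (ENSG00000132780, chromosome 1, 45583846 to 45618904, plus strand), which keeps a reserve of soluble H3 and H4, was at 27.2 (shControl 1) and 27.5 FPKM (shControl 2), against 18.6 (shFOXM1 1) and 16.3 FPKM (shFOXM1 2). Both knockdown libraries lay at 68.1 and 59.7% of the control mean, with means of 27.3 ± 0.157 and 17.5 ± 1.62 FPKM (SD, n = 2 each) and a log2 fold change of -0.62 (SE 0.12). ASF1B (ENSG00000105011, chromosome 19, 14119509 to 14136956, minus strand), the form of ASF1 made in dividing cells that passes H3-H4 to chromatin assembly factors, was at 89.9 FPKM in each of the shControl libraries, against 55.9 (shFOXM1 1) and 45.5 FPKM (shFOXM1 2). The knockdown libraries lay at 62.1 and 50.6% of the control mean, their own mean was 50.7 ± 7.34 FPKM (SD, n = 2), and the log2 fold change was -0.82 (SE 0.13). ASF1A, the other ASF1 gene, which is made in resting cells too, was at 10.4 and 9.78 FPKM in the controls against 10.8 and 18.1 FPKM in the knockdowns. The ratio of ASF1B to ASF1A was 8.66 and 9.20 in the controls against 5.18 and 2.52 in the knockdowns, lower in both knockdown libraries.

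**Figure D4:**
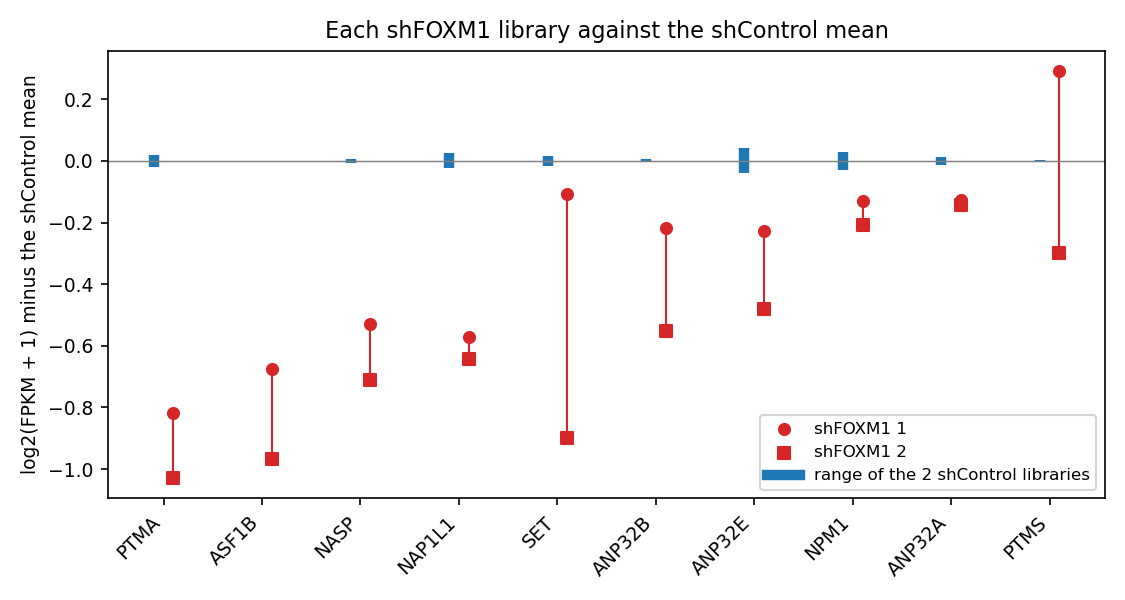
Difference of each shFOXM1 library from the shControl mean on log2(FPKM + 1) (y axis; circles shFOXM1 1, squares shFOXM1 2) for each gene, with blue bars for the range of the 2 shControl libraries, which is too narrow to see for ASF1B. The largest gap between the knockdown libraries is that of SET, from -0.11 to -0.90, and ANP32A, NAP1L1 and NPM1 have the smallest gaps.

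The libraries also differed within the knockdown group, where they may carry different hairpins. In FPKM all 10 genes were lower in shFOXM1 2 than in shFOXM1 1, as FOXM1 itself was, an order that 53.3% of all genes tested had. The FPKM scale did not follow the whole reads: 1 read in 1 kb stood for 0.0676 FPKM in shFOXM1 1 and 0.0656 in shFOXM1 2, the smaller library. As a share of 15017728 and 14680094 reads, ANP32A (4242 and 4315 reads) and NAP1L1 (11907 and 11656) were not lower in shFOXM1 2. The remaining genes were, NPM1 by very little (13513 and 13187). The gap between them on the log2 scale ran from -0.02 for ANP32A to -0.79 for SET, shFOXM1 2 minus shFOXM1 1. Between the shControl libraries the widest gap on that scale was the -0.08 of ANP32E. The 10 genes together took 0.644 and 0.627% of all reads in shControl and 0.462 and 0.414% in shFOXM1, and PTMA's share of those reads was 32.2 and 31.9% in the controls against 24.6 and 25.0% in the knockdowns.

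Promoters of 8 of the 10 genes were in the RefSeq table used (GRCh38.p14), with PTMS and ANP32E missing from it. Those of PTMA, ASF1B and NASP are shown because these 3 had the largest log2 differences, from 250 bases before to 50 after the start site, 5′ to 3′ along the gene's strand. Capitals mark the letters searched on both strands: TTTGAA or TTCGAA (the cell cycle homology region, CHR, of genes bound by MuvB), GTAAACA or ATAAACA (forkhead), TTTCCCGC, TTTCGCGC, TTTGCCGC or TTTGGCGC (E2F), CACGTG (the E-box of MYC) and CCAAT. The PTMA window is chr2:231708275-231708574 (plus strand), that of ASF1B chr19:14136540-14136839 (minus strand) and that of NASP chr1:45583791-45584090 (plus strand).
PTMA: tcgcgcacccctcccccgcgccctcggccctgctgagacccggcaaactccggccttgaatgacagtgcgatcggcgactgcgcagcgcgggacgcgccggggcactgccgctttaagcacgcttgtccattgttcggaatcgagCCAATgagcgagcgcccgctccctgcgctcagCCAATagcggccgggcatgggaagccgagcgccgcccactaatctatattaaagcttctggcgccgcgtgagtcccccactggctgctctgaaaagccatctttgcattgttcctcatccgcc
ASF1B: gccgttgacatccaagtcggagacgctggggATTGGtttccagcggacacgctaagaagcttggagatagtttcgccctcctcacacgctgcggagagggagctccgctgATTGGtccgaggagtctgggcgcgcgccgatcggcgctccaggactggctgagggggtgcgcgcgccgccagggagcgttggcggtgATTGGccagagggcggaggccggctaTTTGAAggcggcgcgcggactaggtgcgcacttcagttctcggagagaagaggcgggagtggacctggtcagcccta
NASP: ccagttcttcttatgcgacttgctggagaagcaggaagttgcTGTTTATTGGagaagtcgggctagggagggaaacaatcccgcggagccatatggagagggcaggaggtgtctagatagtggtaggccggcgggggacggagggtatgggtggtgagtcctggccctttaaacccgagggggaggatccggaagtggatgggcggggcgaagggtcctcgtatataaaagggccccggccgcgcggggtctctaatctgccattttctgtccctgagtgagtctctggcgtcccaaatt

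The PTMA window held 2 CCAAT boxes, at -105 and -73 from the start site, and none of the other letters. The ASF1B window held 3 CCAAT boxes in reverse, at -219, -140 and -53, and 1 CHR sequence at -27. The NASP window held 1 forkhead sequence at -208 and 1 CCAAT box at -203, both in reverse and overlapping each other by 2 bases. NPM1 was the only other gene with a CHR sequence, at -112 in 1 of its windows, and SET and ANP32B held an E-box. Over the 8 genes, CHR letters were present in 2, forkhead letters in 1, E2F letters in 0, the E-box in 2 and CCAAT in 6, some with several start sites. Over all 35116 promoters in the table, each counted singly, the shares were 16.4, 7.43, 3.31, 7.26 and 34.6% in the same order. The 8 genes had 13 promoters, and a gene was counted if any of its windows held the letters. The counts and the shares are therefore in unlike units. A match of letters describes the window and says nothing on whether a factor binds there.

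Other histone chaperones were split by direction. Of 33 on the list 29 were measured, 17 lower and 12 higher by sign, with a median log2 fold change of -0.24 (-0.15 without shFOXM1 2) against -0.00075 over all genes. For 14 both knockdown libraries lay below the controls and for 9 above, orders seen in 25.9 and 27.3% of all genes tested. Limma called 0 in either direction, with 11 lower and 4 higher at an unadjusted p under 0.05. Over all 12033 genes tested the unadjusted counts were 1082 lower and 1061 higher, which holds for the lists below too. These lists were chosen with earlier results of these data known, so their counts describe them and do not test them. MCM2, a helicase subunit of replication that also carries H3-H4, was at 48.6 and 45.2 FPKM in the controls against 33.9 and 21.5 FPKM in the knockdowns. HJURP, which loads the centromere histone CENPA, was at 25.2 and 24.7 FPKM in the controls against 17.8 and 13.8 FPKM in the knockdowns. On the other side stood 2 TSPYL genes, relatives of the NAP1 family. TSPYL4 was at 4.28 and 3.19 FPKM in the controls against 5.61 and 7.99 FPKM in the knockdowns, and TSPYL1 at 6.86 and 7.38 FPKM in the controls against 10.8 and 13.2 FPKM in the knockdowns. NAP1L4, the closest relative of NAP1L1 measured here, was nearly level at 51.1 and 51.7 FPKM in the controls against 51.9 and 53.6 FPKM in the knockdowns, and the ratio of NAP1L1 to NAP1L4 was 1.38 and 1.32 in the controls against 0.894 and 0.822 in the knockdowns.

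The 2 genes of H2A.Z, the cargo of ANP32E, were lower, while the list with its exchange complexes was not. H2A.Z and its exchange complexes had 8 of 18 genes lower and 10 higher by sign, with a median log2 fold change of 0.04. That median was 0.10 without shFOXM1 1, 0.02 without either shControl 1 or shFOXM1 2, and -0.00064 with a filter at a mean of 5 FPKM. H2AFZ and H2AFV, which code for H2A.Z itself, were both lower: H2AFZ was at 166 and 170 FPKM in the controls against 115 and 98.5 FPKM in the knockdowns, and H2AFV at 40.5 and 40.8 FPKM in the controls against 33.6 and 28.7 FPKM in the knockdowns. ZNHIT1, a subunit of the complex that puts H2A.Z in, was higher, at 6.85 and 6.31 FPKM in the controls against 8.79 and 12.0 FPKM in the knockdowns, and KAT5, the acetyltransferase of a related complex, was at 2.89 and 2.78 FPKM in the controls against 3.60 and 4.45 FPKM in the knockdowns. Limma called 0 of the 18, with 2 lower and 2 higher at an unadjusted p under 0.05.

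PP2A, the phosphatase that SET and ANP32A inhibit, had 8 of 17 subunits and regulators lower and 9 higher, with a median of 0.03 whose sign turned to -0.05 without shControl 2 and to -0.0035 without shFOXM1 2. CIP2A, another PP2A inhibitor, was lower, at 14.5 and 14.1 FPKM in the controls against 10.4 and 8.63 FPKM in the knockdowns. PPP2R1B, a scaffold subunit, was at 7.72 and 8.25 FPKM in the controls against 6.30 and 5.74 FPKM in the knockdowns, while LCMT1, which methylates the catalytic subunit, was at 6.92 and 6.81 FPKM in the controls against 7.41 and 10.0 FPKM in the knockdowns. PPP2R5A, a targeting subunit, was at 17.7 and 15.9 FPKM in the controls against 20.6 and 18.3 FPKM in the knockdowns. Limma called 0 of the 17, with 2 lower and 0 higher at an unadjusted p under 0.05.

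The apoptosome, the caspase platform that PTMA restrains and ANP32A promotes, had 5 of 9 measured genes lower and 4 higher, with a median of -0.11. APAF1, its scaffold, was at 14.8 and 15.3 FPKM in the controls against 11.4 and 11.5 FPKM in the knockdowns. BIRC5, an inhibitor of apoptosis protein that also works in mitosis, was at 36.4 and 35.0 FPKM in the controls against 30.7 and 19.8 FPKM in the knockdowns, and CYCS, the cytochrome c that triggers assembly, at 55.3 and 58.4 FPKM in the controls against 51.0 and 48.2 FPKM in the knockdowns. XIAP, which blocks caspases, was higher, at 7.15 and 7.29 FPKM in the controls against 8.73 and 9.90 FPKM in the knockdowns. Limma called 0 of the 9, with 1 lower and 1 higher at an unadjusted p under 0.05. The sign of the list's median turned to 0.07 without shFOXM1 2 and to 0.01 without shControl 1, and the median was -0.06 with no filter on low values.

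Genes of ribosome biogenesis in the nucleolus, where NPM1 works, were lower for 15 of 21 by sign, with a median of -0.15 that became 0.03 without shFOXM1 2 and -0.36 without shFOXM1 1. TCOF1, which supports ribosomal RNA transcription, was at 25.8 and 26.3 FPKM in the controls against 21.4 and 13.8 FPKM in the knockdowns. RRP9 was at 43.9 and 44.8 FPKM in the controls against 32.2 and 29.5 FPKM in the knockdowns. NOP56 and NOP58, partners in the same small nucleolar particle, lay on opposite sides: NOP56 at 69.9 and 70.9 FPKM in the controls against 65.6 and 46.5 FPKM in the knockdowns, NOP58 at 63.4 and 65.3 FPKM in the controls against 91.7 and 77.6 FPKM in the knockdowns. Limma called 0 of the 21, with 3 lower and 1 higher at an unadjusted p under 0.05.

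NASP, ASF1B and PTMA are genes of dividing cells, and markers of DNA replication were lower beside them. All 10 S phase markers had both knockdown libraries below both controls, an order seen in 25.9% of all genes tested. Their log2 fold changes had a median of -0.56 and a range from -0.77 to -0.34. That median was -0.44 without shFOXM1 2 and -0.71 without shFOXM1 1. This list too was chosen with earlier results of these data known, so its counts are a description. MCM4 was at 70.1 and 67.2 FPKM in the controls against 47.3 and 33.5 FPKM in the knockdowns, GINS2 at 20.2 and 18.2 FPKM in the controls against 13.5 and 10.1 FPKM in the knockdowns, and MCM7 at 108 and 107 FPKM in the controls against 80.9 and 64.3 FPKM in the knockdowns. Limma called 0 of the 10, with 9 lower and 0 higher at an unadjusted p under 0.05, against 1082 lower and 1061 higher over all 12033 genes. The part of the share of replicating cells in the levels of the chaperones was not tested.

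**Figure D5:**
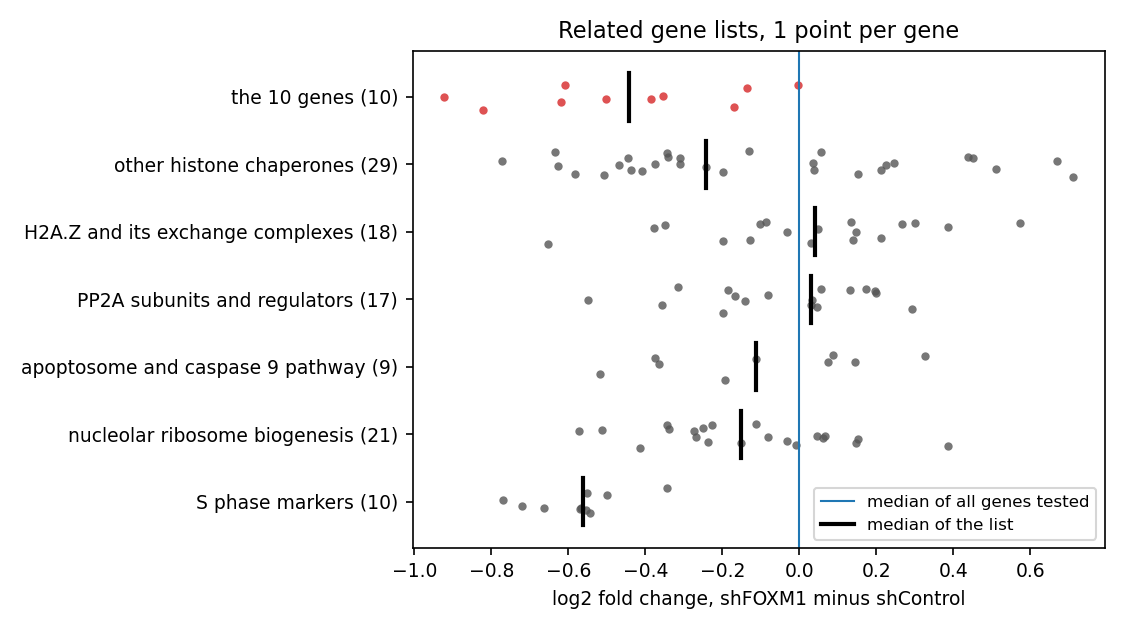
Log2 fold change, shFOXM1 minus shControl (x axis), of the 10 genes (red) and of the measured genes of 6 related lists (grey, number in brackets; points spread vertically only to be visible), with black bars for medians and a blue line for the median of all genes tested. The 10 genes and the S phase markers lie mostly left of the line, with medians of -0.44 and -0.56, while the H2A.Z and PP2A lists straddle it.

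The genes whose profile over the 4 libraries was most like that of PTMA were sought among 278 other coding genes with a mean of at least 100 FPKM, by the Euclidean distance of centred log2(FPKM + 1) values. With only 4 libraries this is a description. The 5 nearest were HMGB2 (distance 0.202), MCM3 (0.212), H2AFZ (0.276), HNRNPA1 (0.371) and PCNA (0.374). HMGB2, a chromatin protein of dividing cells, was at 151 and 149 FPKM in the controls against 90.6 and 86.8 FPKM in the knockdowns. MCM3, a subunit of the replication helicase, was at 133 and 125 FPKM in the controls against 82.1 and 74.4 FPKM in the knockdowns. HNRNPA1, an RNA-binding protein, was at 364 and 341 FPKM in the controls against 267 and 211 FPKM in the knockdowns, and PCNA, the clamp of DNA polymerases, at 262 and 261 FPKM in the controls against 189 and 168 FPKM in the knockdowns. PTMA had a log2 fold change of -0.92, against -0.75 to -0.55 for these 5.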

How the data were processed

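Messenger RNA was sequenced in 2 shControl and 2 shFOXM1 libraries (SMARTER mRNA kit, per the labels' protocols). The authors deposited 1 table of FPKM with the gene lengths behind it, per the file headers. Which aligner, counter and strand setting made it is not given in the sources used here. Builds GRCm38 and mm10 stand in the submitters' processing notes, but the gene identifiers and coordinates of the table are those of human GENCODE release 29. Its sh0 columns were read as shControl, and its sh1 and sh2 columns as shFOXM1 1 and 2, which may be different hairpins. It held 0 columns of other samples.

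Multiplying FPKM by length recovered whole reads (100% of values, tolerance 0.001 read). Limma 3.58.1 (R 4.3.3) was run on log2(FPKM + 1), which understates the change of low genes, for genes reaching 1 FPKM in 2 or more libraries. Its variances were moderated with an intensity trend, tests were two-sided, and Benjamini-Hochberg adjustment covered all genes. The smallest exact permutation p for 2 against 2 is 0.333. The fit was checked on simulated data with equal spread in both groups, for its mean estimates only and not for its calls. Members and lists were chosen with earlier results of these data known. Named genes were the members, FOXM1, up to 4 genes per list with the largest log2 difference among those whose groups do not overlap, copies reaching 20 reads in some library, and the 5 profiles nearest to PTMA. ASF1A, NAP1L4, MLF2 and the cell type markers were named outside that rule, with values known. Reading frames came from the coding transcript ranked first by APPRIS tag, then CCDS, then length, and the windows of ANP32A and ANP32E are not reported here. Alternatives were pseudocounts of 0.1 and 0.01, dropping the filter, a filter at a mean of 5 FPKM, quantile normalization, voom, moderation without a trend or made robust, a replicate block, adding the reads of copies, and leaving out each library.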

Additional observations from a re-analysis of the deposited data

How the results depend on the processing

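All alternatives listed under the processing were run. Limma or voom called 0 genes lower, 0 higher and 0 of the 10 genes under each of them, except with an shFOXM1 library left out. With single libraries left out and the tested genes kept as they were, 0 to 1744 genes were called lower and 0 to 1360 higher (355 and 281 without shFOXM1 2), and 0 to 8 of the 10 were called lower. Without an shFOXM1 library the controls alone supply the spread, and without an shControl library the shFOXM1 libraries do. With the filter applied again to the remaining libraries, a variant chosen after seeing the data, 1914 genes were called lower and 1481 higher without shFOXM1 1 (8 of the 10 lower), 493 and 418 without shFOXM1 2 (4 of the 10 lower), 0 and 1 without shControl 1 and 0 and 0 without shControl 2. Of 140 values for single members 125 kept their direction and their side of the threshold, 12 passed it newly, all without an shFOXM1 library, and 3 turned direction. All 3 were of PTMS, at 0.033 after quantile normalization, 0.013 by voom, and -0.30 to 0.29 with single libraries left out. PTMA ran from -1.03 to -0.82 with single libraries left out and from -0.92 to -0.80 otherwise. Of 78 list medians 70 moved by less than the spread between libraries. Moderation without a trend or made robust and the replicate block cannot change a fold change here. Dropping or raising the filter cannot change that of a member. These values, among the 140 and the 78, could therefore not turn direction or move. Libraries of equal replicate number did not deviate together (r = 0.0421 across genes), and the labels do not pair them. The replicate block called 0 genes lower, 0 higher and 0 of the 10, with 1026 lower and 952 higher at an unadjusted p under 0.05. Each member had at least 997 reads in every library, while the copies PTMAP2 and PTMAP4 had 11 to 23.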
